A study of Mus musculus with 14 samples.

Results

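Integrins, laminins and collagens were followed as 3 gene families of cell adhesion in mouse hepatoblasts, the embryonic progenitors of hepatocytes and bile duct cells. The members were the measured genes whose symbol is Itga or Itgb with a number or letter, Lama, Lamb or Lamc with a number, or Col, a number, a and a number. They came to 68 of the 12393 genes measured, namely 22 integrins, 10 laminins and 36 collagens. The gene names are those of the array's annotation, and a gene with several probe sets was read from the probe set with the highest mean over all arrays. Members of the families without a probe set of a single symbol here were not analysed here.

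The RNA came from 14 cultures in 7 groups of 2 cultures, each hybridised to 1 Affymetrix mouse array. The cells were taken from wild-type mice at embryonic day 14 and were immortalised by plating at clonal density. They carried a doxycycline-inducible construct. On plates coated with rat tail collagen, 5 groups were grown. These carried an empty vector, either of the mutants IDH1 R132C and IDH2 R172K, or either enzyme in its wild-type form (IDH1 WT, IDH2 WT). On uncoated plates, which the protocol used for hepatocyte differentiation over up to 5 days, 2 groups were grown, with the empty vector and with IDH1 R132C. IDH1 and IDH2 are isocitrate dehydrogenases, and R132C and R172K are mutations of their active sites. All groups shared one medium with serum, EGF, IGF-II and insulin. The protocol names 25 ng/mL doxycycline for the IDH1 experiments, and neither the dose in the other groups nor the exact day on uncoated plates is given in the sources used here. The labels do not say whether the lines were single clones.

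Integrins are receptors made of an alpha and a beta chain that tie the cytoskeleton to the matrix outside the cell. Laminins are trimers of an alpha, a beta and a gamma chain and, with the network of type IV collagen, form the basement membrane under epithelia, while fibrillar collagens such as types I, III and V build the fibres of connective tissue. In liver and bile duct epithelium, the pair of alpha-2 and beta-1 binds collagen, and alpha-3 with beta-1, and alpha-6 with beta-1 or beta-4, bind laminins.

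The values are array intensities on the log2 scale, and the level of one gene's probe set is not set against that of another. Median intensities were 144.8 to 148.3, except on the array of IDH2 R172K culture 1, at 134.9. The arrays of a group correlated at 0.994 to 0.998, and IDH2 R172K had the lowest value. The series text calls the arrays of a group separate cultures, and 2 arrays a group limit the precision of every value below. Of the 11 liver epithelial markers measured, Alb, which encodes albumin, was near background in 4 groups, and the others were above it in every group. Among them 5 of 11 changed between plates in vector cells and 4 of 11 in IDH1 R132C cells. Sox9, a bile duct regulator, rose by 2.02 and 1.98 on the log2 scale, Epcam rose by 1.83 and 1.08, and Afp, which encodes alpha-fetoprotein, changed by -1.39 and -0.83. Krt19, a bile duct keratin, did not rise with Sox9 in IDH1 R132C cells (-0.23, limma adjusted p = 0.0505). With both mutants set against both wild types on collagen, 5 of 11 changed, and Afp was higher by 0.84, Hnf4a lower by 0.54 on the log2 scale and Epcam by 0.75. The part of these shifts in the changes below was not tested. Of the 18 mesenchymal markers, 6 were near background in all 7 groups, among them Pdgfra, Lum and Postn, as were 6 of 10 endothelial markers and 2 of 11 blood cell markers. A lower value can come from fewer cells that express a gene or from less RNA in each cell, which cannot be told apart in these whole-culture samples.

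A group was called near background for a gene when both of its arrays lay at or below the lower quartile of their own array, which was log2 4.72 to 4.80. By that mark 45 of the 68 members were above background in every group, 12 were near it in some groups and 11 in all 7. The share near background in all groups was 16.2% for the members and 17.4% for all genes. The integrins and laminins were mostly above it, with 16 of 22 and 9 of 10 in no group near background. The integrins near background throughout were Itgam, a leukocyte chain, and Itga8, and the laminin was Lama3, the alpha chain of epithelial laminin-332. Of the 36 collagens, 20 were never near background and 8 always were. Those 8 were Col3a1, Col5a3 and Col11a1, all fibrillar, together with Col10a1, Col13a1, Col17a1, Col19a1 and Col26a1. Other fibrillar chains, namely Col1a1, Col1a2, Col5a1, Col5a2 and Col11a2, were near background in no group. The integrins near background in some groups were Itgae, Itga4, Itgax and Itgb2, all 4 known from leukocytes. Itgal, Itgb7 and Itgb2l, also known from leukocytes, were near background in no group. The collagens near background in some groups included Col4a3, Col4a4 and Col4a6, the type IV chains with a narrow tissue range.

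**Figure D1:**
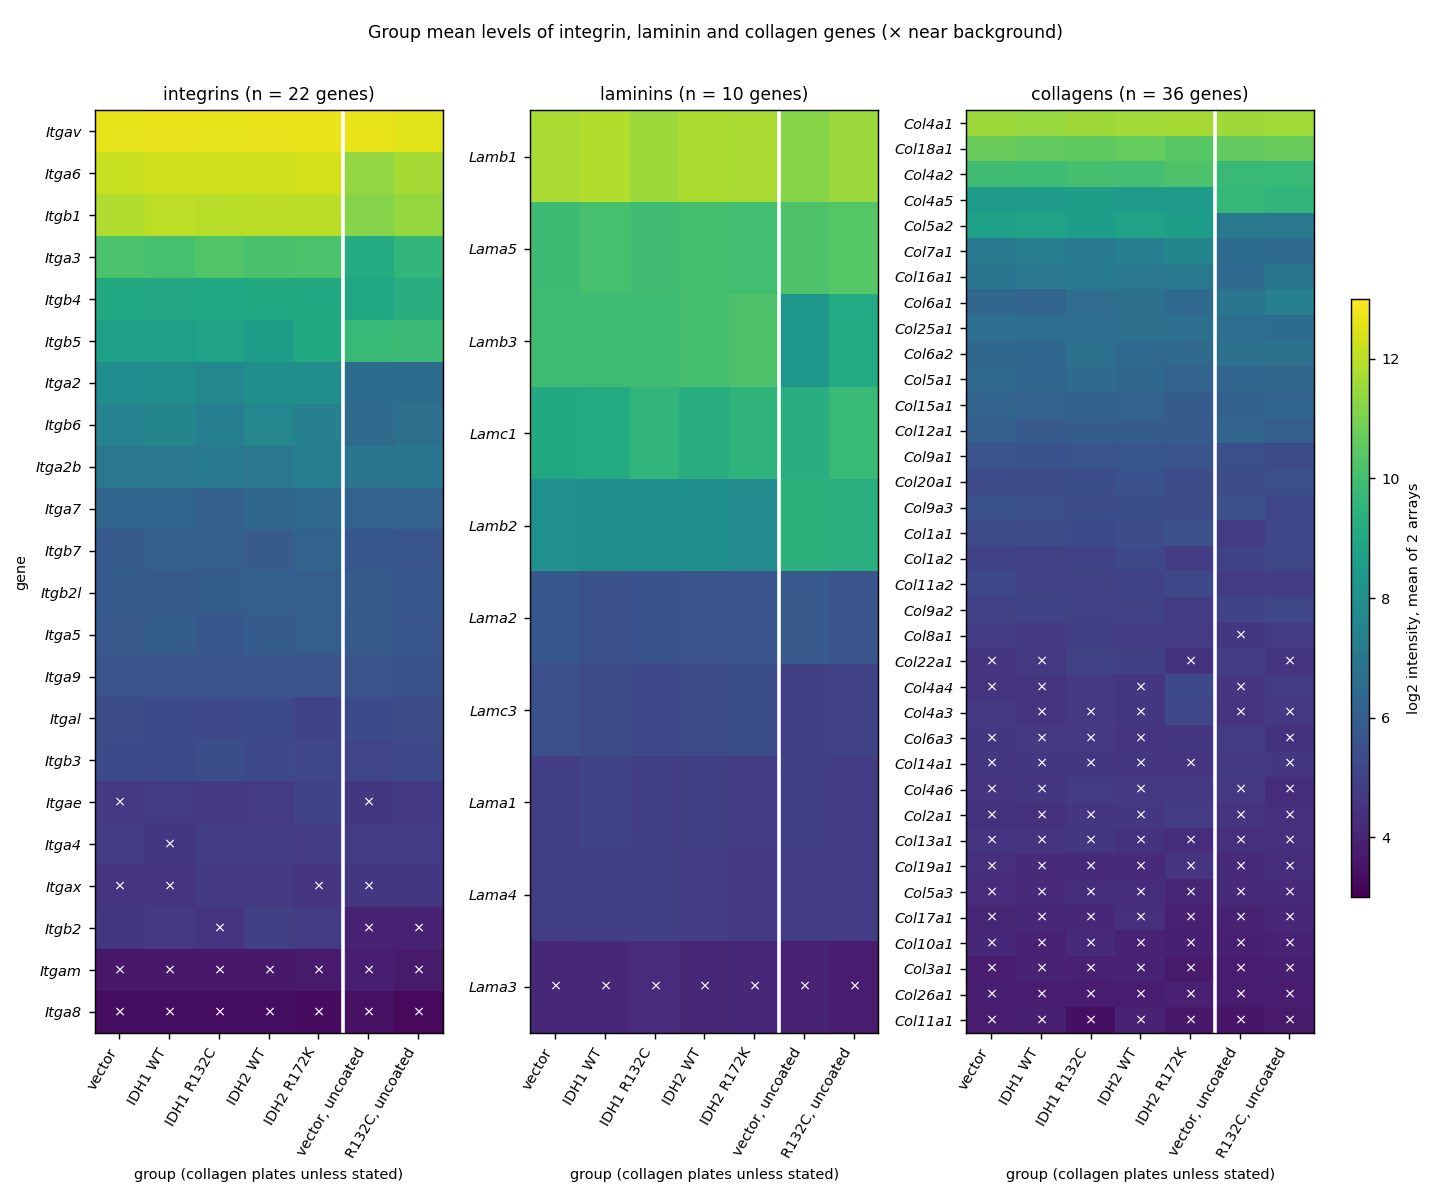
Mean log2 intensity of 2 arrays (colour) for the 68 members (rows, in 3 families) in the 7 groups (columns), with a cross where a group was near background. Only differences along a row can be read, since each row is another probe set, and 11 members carry a cross in all 7 groups.

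The first comparison asked how the families differ between vector cells on uncoated and on collagen-coated plates. The integrin chains Itga2, Itga3, Itga6, Itgb1 and Itgb6 fell on uncoated plates, by between 1.54-fold and 2.57-fold, while the laminin receptor chains Itgb4 (-0.079 on the log2 scale) and Itga7 (-0.077) did not pass the test. Itgb5 and the laminin chain Lamb2 rose more than 2-fold, and Lamb3 fell by 1.58 on the log2 scale. Among the collagens, Col5a2 fell 3.28-fold and Col4a5 rose 2.24-fold, while the main type IV chain Col4a1 stood at nearly the same level on both plates. In all, 16 of the 68 members (23.5%) passed an adjusted p of 0.05 in limma with Benjamini-Hochberg adjustment over all genes, 3 higher and 13 lower, against 29.3% of all genes, of which 15.1% were higher and 14.2% lower. The members' median change was -0.068, and that of all genes was -0.020. By family, 1 integrin rose and 6 fell, 1 laminin rose and 3 fell, and 1 collagen rose and 4 fell.

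The same plates were compared in IDH1 R132C cells, with arrays that the vector comparison did not use. There 12 members (17.6%) passed the test, 3 higher and 9 lower, against 25.9% of all genes, of which 13.6% were higher and 12.3% lower. The members' median change was -0.071, and that of all genes -0.028. Of the members called, 3 were higher and 8 lower in both cell lines, against 10.8% and 9.98% of all genes. A further 5 passed in vector cells alone and 1 in IDH1 R132C cells alone, and no member was called in opposite directions. The 2 comparisons share no array but share one estimate of the spread. Across the 68 members the changes correlated at 0.878, and across the 45 never near background at 0.936, as a description over genes that are not independent.

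Set against all 10 arrays from collagen, the 4 uncoated arrays did not overlap them in 15 members. The 3 higher ones were Itgb5, Lamb2 and Col4a5, against 15.2% of all genes. The 12 lower ones were Itga2, Itga2b, Itga3, Itga6, Itgb1, Itgb2, Itgb6, Lamb3, Lamc3, Col1a1, Col5a2 and Col7a1, against 13.6% of all genes. This count also holds the collagen arrays of wild-type IDH1, wild-type IDH2 and IDH2 R172K cells, which no plate comparison used. Those cells had no uncoated arrays, so the count does not show their response to the plate.

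Itga2 is the alpha chain of the collagen receptor. Its 2 vector cultures stood at log2 7.89 and 7.87 on collagen and at 6.63 and 6.41 on uncoated plates. The IDH1 R132C cultures stood at 7.63 and 7.66 on collagen and at 6.54 and 6.52 without it. Every uncoated array was below the lowest of the 10 collagen arrays, which spanned 7.63 to 8.01. The fall was 1.36 on the log2 scale in vector cells (SE 0.11, 2.57-fold, limma adjusted p = 3.7e-06) and 1.12 in IDH1 R132C cells (2.17-fold, adjusted p = 5.0e-05).

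Its partner Itgb1, the beta chain that most matrix receptors share, was also lower on uncoated plates, by less. Vector cultures read 11.81 and 11.80 on collagen and 11.13 and 11.22 on uncoated plates. IDH1 R132C cultures read 11.78 and 12.07 on collagen and 11.49 and 11.37 on uncoated plates. The groups did not overlap in either cell line. The fall was 0.63 (SE 0.17, 1.54-fold, limma adjusted p = 0.0126) in vector cells and 0.49 (1.41-fold, adjusted p = 0.0451) in IDH1 R132C cells. The gene has 5 other probe sets, whose changes in vector cells ran from -0.46 to 0.061, so the size of the fall depends on the probe set.

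The laminin receptor chains Itga3 and Itga6 fell in both cell lines. Itga3 stood at 10.25 and 10.07 in vector cells on collagen, and at 9.04 and 9.29 on uncoated plates. In IDH1 R132C cells it stood at 10.44 and 10.10 on collagen and at 9.58 and 9.68 on uncoated plates, so that all 4 uncoated arrays were below all collagen arrays. The changes were -0.995 (SE 0.17, limma adjusted p = 0.000787) and -0.65 (adjusted p = 0.0147). Itga6 went from 12.19 and 12.14 to 11.28 and 11.44 in vector cells, and from 12.30 and 12.22 to 11.66 and 11.68 in IDH1 R132C cells. These are falls of 1.75-fold (limma adjusted p = 6.5e-05) and 1.51-fold (adjusted p = 0.00088), again with no overlap. Itgb4, the beta chain that pairs with alpha-6 in hemidesmosomes, did not pass the test. Its vector cultures read 9.02 and 9.13 on collagen and 9.08 and 8.91 on uncoated plates, and its change was -0.079 (adjusted p = 0.727), against 0.28 (adjusted p = 0.140) in IDH1 R132C cells.

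Beta-5 and beta-6 both pair with the alpha-v chain, and they moved in opposite directions. Itgb5, a chain of a vitronectin receptor, read 8.59 and 8.88 in vector cells on collagen and 9.61 and 9.96 on uncoated plates. IDH1 R132C cells read 8.75 and 8.76 on collagen and 9.61 and 10.05 on uncoated plates. All 4 uncoated arrays were above the 10 collagen arrays, whose highest was 9.23. The rise was 2.07-fold in vector cells (log2 1.05, SE 0.16, limma adjusted p = 0.00034) and 2.10-fold in IDH1 R132C cells (adjusted p = 0.00047), and its 3 other probe sets gave 1.11 to 1.21 in vector cells.

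Itgb6, the epithelial chain of a receptor that activates latent TGF-beta, read 7.44 and 7.40 in vector cells on collagen and 6.58 and 6.30 on uncoated plates. The mutant cells read 7.26 and 7.36 on collagen and 6.83 and 6.57 on uncoated plates. It fell 1.97-fold (limma adjusted p = 0.00148) and 1.53-fold (adjusted p = 0.0270). The alpha-v chain itself, Itgav, read 12.60 and 12.69 on collagen and 12.56 and 12.75 on uncoated plates in vector cells, a change of 0.0094 with a 95% interval of -0.28 to 0.29 (adjusted p = 0.975). In IDH1 R132C cells its change was -0.090 (adjusted p = 0.687). The interval for this Itgav probe set in vector cells ends short of the fitted changes of Itgb5 and Itgb6. The gene's other probe sets, with mean levels of 7.23 and 4.46, gave -0.33 and -0.35 in vector cells. In IDH1 R132C cells they gave -0.57 and -0.26, so the value for Itgav depends on the probe set.

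Itgb2, the beta chain of leukocyte integrins, was called in vector cells (-0.67, SE 0.24, limma adjusted p = 0.0491) and not in IDH1 R132C cells (-0.58, adjusted p = 0.0941). Its vector cultures read 4.88 and 4.38 on collagen and 4.06 and 3.86 on uncoated plates. Both uncoated groups were near background, so these differences are taken against a probe set not above background. Of the 11 blood cell markers measured, Ptprc alone passed the test on plates, and it rose by 1.73 in vector and 1.19 in IDH1 R132C cells. The log2 of their summed intensity was 10.33 and 10.44 in vector cells on collagen and 10.53 and 10.33 on uncoated plates, and Tyrobp and Hba-a1 were near background in all groups. The part of blood cell markers in the Itgb2 value was not tested.

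**Figure D2:**
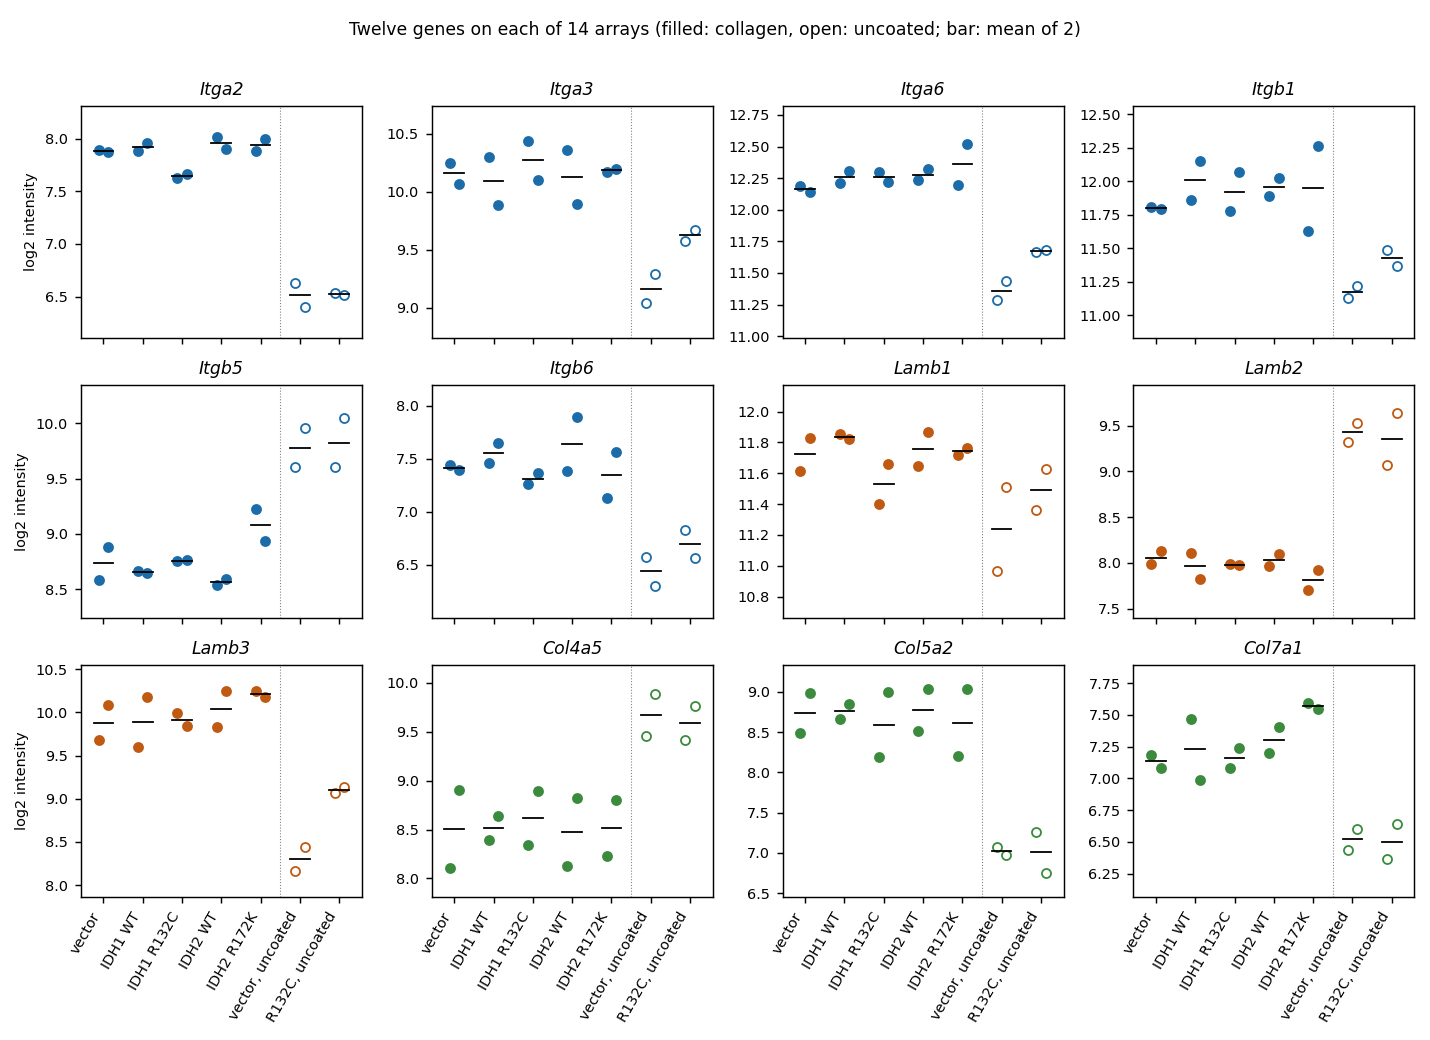
Log2 intensity of single arrays (points) by group for 12 members that changed on plates, filled for collagen and open for uncoated plates, with a bar at each group's mean of 2 arrays. In the uncoated groups Itga2, Itga3, Itga6 and Lamb3 lie below the 5 collagen groups, and Itgb5 and Lamb2 lie above them.

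Among the laminins, the beta chains took different directions. Lamb2 forms laminins of mature basement membranes. It read 7.99 and 8.12 in vector cells on collagen and 9.33 and 9.53 on uncoated plates, and 7.98 and 7.97 against 9.07 and 9.64 in IDH1 R132C cells. None of the 10 collagen arrays passed 8.12, so the groups were far apart. It rose 2.59-fold in vector cells (log2 1.37, SE 0.17, limma adjusted p = 7.1e-05) and 2.60-fold in IDH1 R132C cells (adjusted p = 0.00014).

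Lamb3, the beta chain of laminin-332, read 9.68 and 10.09 in vector cells on collagen and 8.16 and 8.44 on uncoated plates. In IDH1 R132C cells it read 9.99 and 9.84 on collagen and 9.07 and 9.14 on uncoated plates. The uncoated arrays lay below the collagen arrays in both, and the IDH1 R132C arrays lay between. The fall was 1.58 on the log2 scale in vector cells (SE 0.19, limma adjusted p = 6.5e-05) and 0.81 in IDH1 R132C cells (1.75-fold, adjusted p = 0.00815). The alpha chain of that laminin, Lama3, was near background in every group.

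Lamb1, the beta chain of embryonic laminin-111, read 11.61 and 11.83 on collagen and 10.96 and 11.51 on uncoated plates in vector cells. It was called there (-0.49, SE 0.16, limma adjusted p = 0.0342) and not in IDH1 R132C cells (-0.035, adjusted p = 0.912). Lamc3 was called in vector cells (-0.54, SE 0.12, limma adjusted p = 0.00355) at 5.37 and 5.54 against 4.91 and 4.91, and not in IDH1 R132C cells (-0.25, adjusted p = 0.145). These levels are just above the background mark. Lama5, the alpha chain of laminin-511, gave 0.32 (adjusted p = 0.267) and 0.40 (adjusted p = 0.168). Lamc1, the gamma chain in most laminins, gave 0.21 (adjusted p = 0.187) and 0.16 (adjusted p = 0.351), so neither chain passed the test in either cell line. Lama2 and Lama1 did not pass it either, and their arrays spanned 5.31 to 5.95 and 4.72 to 5.07.

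Among the collagens, Col5a2, a chain of the type V collagen that is built into type I fibres, moved most in vector cells. It read 8.49 and 8.98 on collagen and 7.07 and 6.98 on uncoated plates, and in IDH1 R132C cells 8.19 and 8.999 against 7.26 and 6.75. The 4 uncoated arrays lay below the lowest collagen array, 8.19, although the cultures of a collagen group also stood apart. The fall was 1.71 on the log2 scale (SE 0.31, 3.28-fold, limma adjusted p = 0.00097) and 1.59 (3.01-fold, adjusted p = 0.00222), and the gene's other probe set gave -0.96 in vector cells. Of the 18 mesenchymal markers, which are typical of cells that make fibrillar collagen, Twist2 alone passed the test on plates, and it rose by 0.83 and 0.98. The log2 of their summed intensity was 14.17 and 14.20 in vector cells on collagen and 13.92 and 14.03 on uncoated plates, and Pdgfra, Thy1, Lum, Postn, Twist1 and Lrat were near background in all groups. The part of mesenchymal markers in the collagen values was not tested.

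The type IV collagens did not move as one group. Col4a5, which trimerises with other minor type IV chains, read 8.11 and 8.91 in vector cells on collagen and 9.45 and 9.88 on uncoated plates, and 8.34 and 8.90 against 9.42 and 9.76 in IDH1 R132C cells. It rose 2.24-fold (log2 1.16, SE 0.30, limma adjusted p = 0.0108) and 1.96-fold (log2 0.97, adjusted p = 0.0303). The gene's other probe set gave 1.02 in vector cells and 0.45 in IDH1 R132C cells. The main chains of the basement membrane network, Col4a1 and Col4a2, did not pass the test. Col4a1 read 11.52 and 11.58 on collagen and 11.50 and 11.63 on uncoated plates in vector cells, a change of 0.018 with an interval of -0.21 to 0.25 (adjusted p = 0.935). Col4a2 gave -0.19 (adjusted p = 0.218) in vector cells and -0.26 (adjusted p = 0.0952) in IDH1 R132C cells. Col4a6 was called only in IDH1 R132C cells (-0.44, limma adjusted p = 0.0224), at 4.88 and 4.59 against 4.15 and 4.44. It was near background in 5 of the 7 groups, the uncoated ones included. Its other probe set gave 0.0033 in IDH1 R132C cells, so the fall was seen on 1 probe set only.

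Col7a1, the anchoring fibril collagen that links the basement membrane to the tissue below, fell in both cell lines. It read 7.19 and 7.08 against 6.44 and 6.60 in vector cells, and 7.08 and 7.24 against 6.37 and 6.64 in IDH1 R132C cells. The falls were 1.53-fold (limma adjusted p = 0.0115) and 1.58-fold (adjusted p = 0.00939). Col1a1, the main chain of type I collagen, was called in vector cells (-0.53, SE 0.18, limma adjusted p = 0.0387) at 5.32 and 5.32 against 4.56 and 5.03. The reading of 4.56 lay below the background mark of its array, 4.74, and that of 5.03 above its own, 4.75. In IDH1 R132C cells Col1a1 was not called (-0.093, adjusted p = 0.766). Col16a1 was likewise called in vector cells (-0.45, limma adjusted p = 0.0387) and not in the others (-0.25, adjusted p = 0.273). Col18a1, the basement membrane collagen that is the source of endostatin, gave -0.13 (adjusted p = 0.615) and 0.17 (adjusted p = 0.476). Col6a1 differed most between cultures of a group, from 5.55 to 7.05 in vector cells on collagen, and did not pass the test.

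Several of these calls were lost with 1 array left out. Such a fit keeps 1 culture in that group, so a lost call does not show that the array left out made it. In vector cells Col4a5, Col7a1, Col16a1, Col1a1, Itgb1 and Itgb2 no longer passed without collagen culture 1 (limma adjusted p 0.0618 to 0.357). Col7a1, Col16a1, Col1a1, Itgb1, Itgb2 and Lamb1 did not pass without uncoated culture 1 (adjusted p 0.0839 to 0.391), Col4a5 and Itgb2 without uncoated culture 2 (0.0933 to 0.216), and Col16a1, Col1a1 and Lamb1 without collagen culture 2 (0.114 to 0.192). In IDH1 R132C cells Col4a5, Col4a6, Itgb1, Itga3, Itgb6 and Lamb3 did not pass without collagen culture 1 (adjusted p 0.0571 to 0.247), and Col7a1, Itgb1 and Itgb6 did not without collagen culture 2 (0.0759 to 0.273). There Col4a5, Itgb1, Itga3 and Itgb6 were also lost without uncoated culture 2 (0.0576 to 0.215), and Col7a1, Col4a6, Itgb1 and Itga3 without uncoated culture 1 (0.0777 to 0.203). Itga2, Itga6, Itgb5, Lamb2 and Col5a2 were called in both cell lines under all alternatives run.

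**Figure D3:**
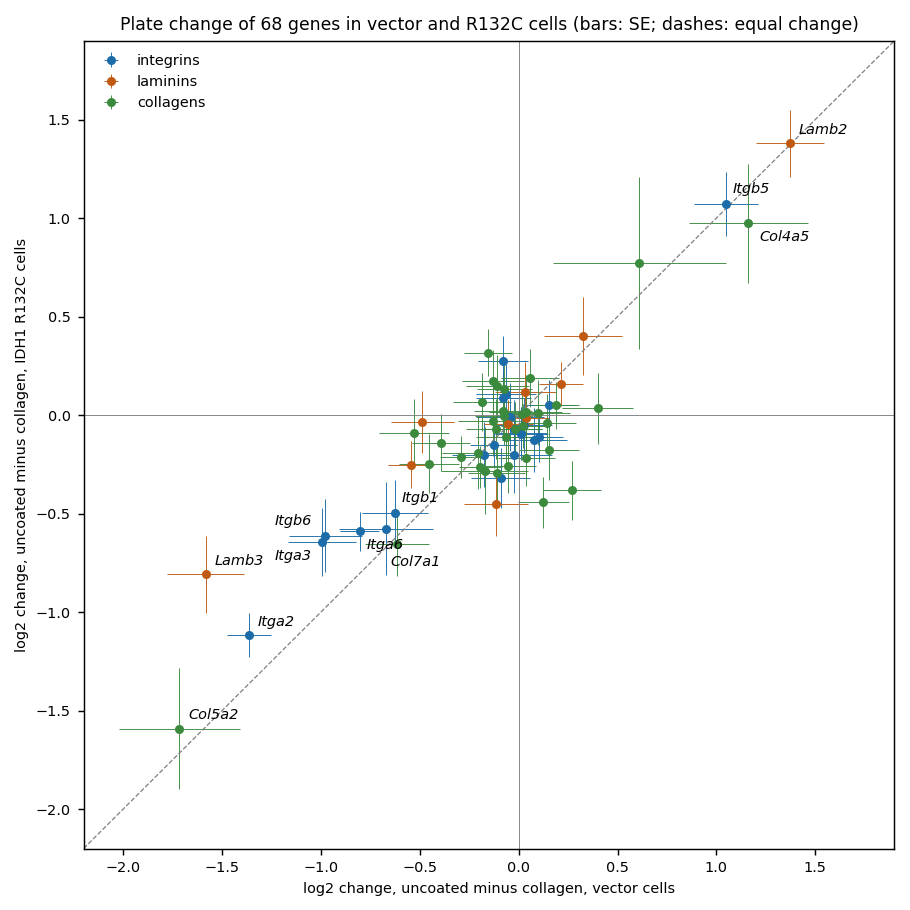
Log2 change from collagen-coated to uncoated plates in vector cells (horizontal axis) and in IDH1 R132C cells (vertical axis) for the 68 members, each point a gene coloured by family, with bars of 1 SE and a dashed line of equal change. The 11 members called in both cell lines lie in the lower left (8) and upper right (3) corners.

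The start regions of members that changed together are shown for Itga2, Itga3, Itgb1 and Lamb3, which all fell on uncoated plates. The Col4a2 window is shown because it holds the start of a divergent neighbour. RefSeq windows of the GRCm38.p6 build, from 250 bases before to 50 bases after the start, were at hand for 47 of the 68 members. Those of Itga2 (chr13:114932051-114932350) and Itga3 (chr11:95069149-95069448) are on the minus strand, and those of Itgb1 (chr8:128685404-128685703), Lamb3 (chr1:193301993-193302292) and Col4a2 (chr8:11312555-11312854) on the plus strand. Itga3 and Lamb3 have 2 windows each, and the 1 printed was picked for having the most matches to the motifs searched below. Each runs from 5′ to 3′ along the gene. Capitals mark an AP-1 match in Itga3, a TEAD match in Itgb1 and, as its reverse complement, in Lamb3, and in Col4a2 the 78 bases (chr8:11312777-11312854) that also belong to the Col4a1 window on the other strand.
Itga2: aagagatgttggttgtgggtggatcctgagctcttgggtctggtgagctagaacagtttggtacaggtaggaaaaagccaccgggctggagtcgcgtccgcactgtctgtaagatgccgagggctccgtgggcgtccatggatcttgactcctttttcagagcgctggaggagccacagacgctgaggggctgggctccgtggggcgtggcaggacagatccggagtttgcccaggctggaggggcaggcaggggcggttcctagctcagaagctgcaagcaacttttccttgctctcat
Itga3: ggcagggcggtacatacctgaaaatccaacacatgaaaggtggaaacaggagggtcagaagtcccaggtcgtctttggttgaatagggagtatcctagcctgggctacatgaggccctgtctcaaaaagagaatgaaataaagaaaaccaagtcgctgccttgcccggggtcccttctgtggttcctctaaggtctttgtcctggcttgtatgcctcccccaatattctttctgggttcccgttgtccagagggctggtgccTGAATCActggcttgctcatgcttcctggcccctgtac
Itgb1: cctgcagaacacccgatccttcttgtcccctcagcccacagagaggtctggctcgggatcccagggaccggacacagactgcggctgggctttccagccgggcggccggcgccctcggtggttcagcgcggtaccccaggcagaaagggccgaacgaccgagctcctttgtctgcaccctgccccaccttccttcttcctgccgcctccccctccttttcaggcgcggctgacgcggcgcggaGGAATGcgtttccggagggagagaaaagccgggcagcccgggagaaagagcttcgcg
Lamb3: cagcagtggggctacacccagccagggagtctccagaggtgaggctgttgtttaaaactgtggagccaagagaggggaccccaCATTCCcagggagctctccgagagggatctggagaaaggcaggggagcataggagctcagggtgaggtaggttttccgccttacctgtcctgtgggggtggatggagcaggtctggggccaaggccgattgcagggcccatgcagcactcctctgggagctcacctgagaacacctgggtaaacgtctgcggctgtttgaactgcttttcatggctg
Col4a2: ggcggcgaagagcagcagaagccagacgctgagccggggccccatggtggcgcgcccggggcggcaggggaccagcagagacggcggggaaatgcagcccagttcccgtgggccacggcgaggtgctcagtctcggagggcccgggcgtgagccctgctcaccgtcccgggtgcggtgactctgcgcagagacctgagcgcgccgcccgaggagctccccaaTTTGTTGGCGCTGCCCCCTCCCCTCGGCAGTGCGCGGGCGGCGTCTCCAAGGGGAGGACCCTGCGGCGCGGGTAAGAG

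In these windows 4 motifs were searched on both strands, and a match is a description of letters only. AP-1 (TGANTCA) was found in 4 of 47 members, against 8.97% of all genes with a window. TEAD (GGAATG) was found in 7, against 16.6% of genes. HNF4 (TGNACTTTG) was found in 1, against 1.64%, and a TATA box (TATAAA) in 5, against 15.7%. Of the 12 members with a window that changed on either pair of plates, 1 held the AP-1 letters (Itga3), 3 held the TEAD letters (Itgb1, Lamb3 and Col4a6) and none held those of HNF4 or the TATA box. The 2 divergent type IV pairs stood apart in their values. Col4a1 and Col4a2, whose windows overlap, both failed the test on plates, while Col4a5 rose and Col4a6, whose window on the X chromosome lies 842 bases away, was near background in 5 groups.

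The next question was whether the plate change itself differed between the cell lines. No member passed that test, against 0.250% of all genes, and 4 members and 694 genes had an unadjusted limma p under 0.05. Lamb3 had the largest difference among the members called on plates, as its fall was smaller in IDH1 R132C cells by 0.77 (95% interval 0.18 to 1.37, adjusted p = 0.608). For Itga2 the difference was 0.25 (interval -0.095 to 0.59), for Itga3 0.35 (interval -0.18 to 0.88) and for Lamb1 0.45 (interval -0.033 to 0.94). For Itgb5 it was 0.022 (interval -0.47 to 0.52) and for Lamb2 0.0061 (interval -0.52 to 0.53). The intervals for the last 2 genes reach differences of about 0.5, so a similar response in both cell lines is not shown.

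On uncoated plates, IDH1 R132C cells were then set against vector cells, and 1 member passed the test, against 2.39% of all genes, of which 0.896% were higher and 1.49% lower. Lamb3 was higher in IDH1 R132C cells, at 9.07 and 9.14 against 8.16 and 8.44, a difference of 0.81 (SE 0.19, interval 0.39 to 1.22, 1.75-fold, limma adjusted p = 0.0498). The difference ran from 0.67 to 0.94 under the alternatives run, and the call sits at the threshold. It was lost without any one of the 4 arrays, with an adjusted p of 0.458 and 0.0722 without vector cultures 1 and 2, and of 0.266 and 0.161 without IDH1 R132C cultures 1 and 2. Lamc1 stood at 9.69 and 9.76 against 9.23 and 9.36, a difference of 0.43 that did not pass (adjusted p = 0.0750). Itga6 at 0.31 (adjusted p = 0.137), Itga3 at 0.46 (adjusted p = 0.229) and Col16a1 at 0.39 (adjusted p = 0.245) did not pass either. These 4 genes were named after their values were seen.

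On collagen, each mutant was compared with its wild-type enzyme. No member was called for IDH1 R132C against wild-type IDH1, against 0.0484% of all genes, with 3 members and 932 genes at an unadjusted limma p under 0.05. None was called for IDH2 R172K against wild-type IDH2 either, against 1.73% of all genes (0.597% higher and 1.14% lower), with 10 members and 2089 genes at an unadjusted p under 0.05. Without IDH2 R172K culture 2 that count became 5. With both mutants set against both wild types, 2 members passed, against 3.61% of all genes. Lamc1 was higher and Col11a1 lower, against 1.18% and 2.44% of all genes. Col11a1 (-0.37, adjusted p = 0.0318) was near background in all groups, so its value is a difference between background readings.

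Lamc1 passed the pooled test but neither single comparison. On collagen it read 9.58 and 9.56 in IDH1 R132C cells and 9.40 and 9.61 in IDH2 R172K cells. It read 9.04 and 9.27 with wild-type IDH1, 9.15 and 9.34 with wild-type IDH2 and 9.05 and 9.12 with vector. All 4 mutant arrays on collagen were above the 6 others. The pooled difference was 0.34 (SE 0.080, 1.26-fold, limma adjusted p = 0.0376), made up of 0.41 for IDH1 (adjusted p = 0.296) and 0.26 for IDH2 (adjusted p = 0.263). Its second probe set gave 0.34 and 0.22.

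With the uncoated plates included, the 6 mutant arrays lay at 9.40 to 9.76 and the 8 others at 9.04 to 9.36. Lamc1 was the single member without overlap between the 6 and the 8, where 0.274% of all genes were higher and 0.371% lower without overlap. Under all alternatives run, the Lamc1 difference stayed at 0.28 to 0.39. A fit without 1 array keeps 1 culture in that group, so a lost call does not show that the array made it. The pooled calls on collagen were not kept in all such fits. Both were lost without either culture of wild-type IDH1, wild-type IDH2 or IDH1 R132C, with a limma adjusted p between 0.0512 and 0.147, and that of Lamc1 was kept without either culture of IDH2 R172K. The call of Col11a1 was also lost without IDH2 R172K culture 1 (adjusted p = 0.0548).

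Col4a3 and Col4a4, which trimerise with Col4a5 in specialised basement membranes, were highest in IDH2 R172K cells, and they are named here after their values were seen. Col4a4 read 5.02 and 5.41 with IDH2 R172K and 4.63 and 4.55 with wild-type IDH2, a difference of 0.63 (limma adjusted p = 0.0740). Col4a3 read 4.85 and 5.41 against 4.63 and 4.60, a difference of 0.51 (adjusted p = 0.165). Both missed the threshold, and both were near background in some of the other groups. Itgb5 read 9.23 and 8.94 against 8.54 and 8.59, a difference of 0.51 (adjusted p = 0.131), and Itga2b differed by 0.34 (adjusted p = 0.165). In IDH1 R132C cells Itga2 was at 7.63 and 7.66 against 7.88 and 7.96 with wild-type IDH1, a difference of -0.28 (adjusted p = 0.578). Itgb5, Itga2b and Itga2 were likewise named here after their values were seen.

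**Figure D4:**
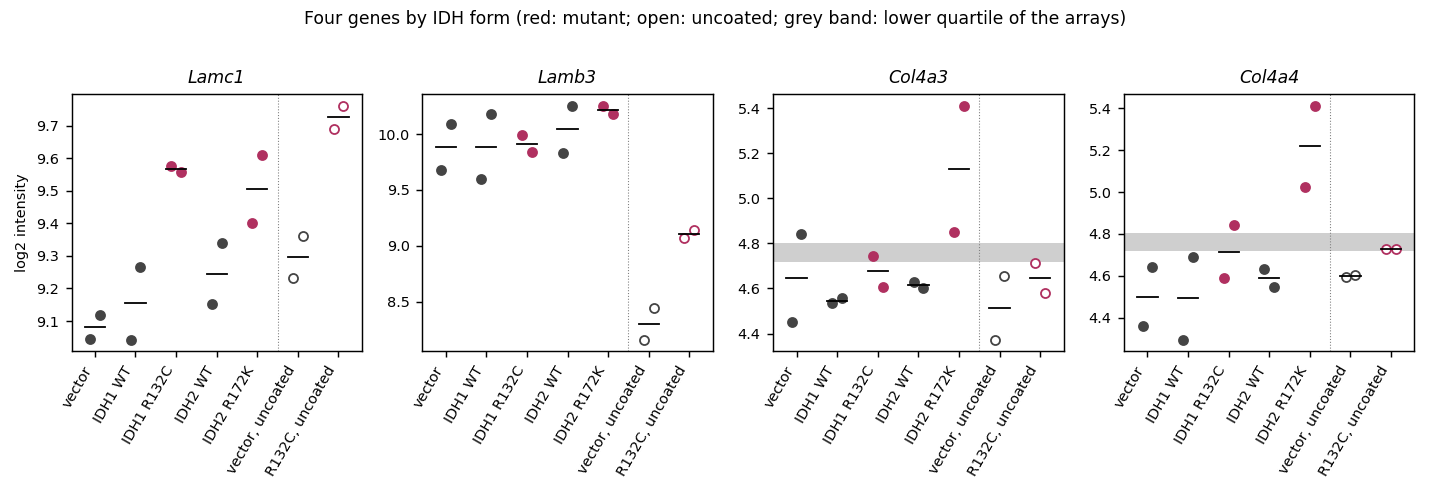
Log2 intensity of single arrays (points, red for mutant IDH, open for uncoated plates) by group for Lamc1, Lamb3, Col4a3 and Col4a4. A bar marks each group's mean of 2 arrays, and a grey band in the Col4a3 and Col4a4 panels marks the background level. For Lamc1 the 6 mutant arrays (9.40 to 9.76) lie above the 8 others (9.04 to 9.36).

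The wild-type enzymes were set against vector on collagen. No member and 0% of all genes passed the limma test for wild-type IDH1, with 0 members and 128 genes at an unadjusted p under 0.05, and the same held for wild-type IDH2, with 1 member and 116 genes. A test for any difference among the 5 collagen groups called no member, against 1.27% of all genes, with 5 members and 1501 genes at an unadjusted p under 0.05. In that test Lamc1 had an adjusted p of 0.102 and Col4a4 of 0.115.

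The partners of the 3 families were followed in 4 lists, which were drawn up with earlier results of these data known. They cover the adhesion proteins inside the cell (27 measured), other basement membrane and matrix proteins (22), the enzymes that fold and crosslink collagen (22), and the matrix proteases and their inhibitors (30). Of the adhesion proteins, 2 rose and 3 fell on uncoated plates in vector cells (18.5% called, against 29.3% of all genes), and 6 rose and 4 fell in IDH1 R132C cells (37.0%, against 25.9%). Cav1, which encodes the coat protein of caveolae, changed by -1.15 and -0.69 on the log2 scale, and Fermt3, which encodes a kindlin that activates integrins, by -0.91 and -0.90. Lims2 rose by 0.79 and Flna, the actin crosslinker filamin A, fell by 0.36 in vector cells, and neither passed the test in IDH1 R132C cells (0.015 and -0.047). Tns1, a tensin that binds integrin tails, rose by 0.80 and Cd47 by 0.49 in IDH1 R132C cells, and neither passed in vector cells (-0.15 and 0.30).

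Of the matrix proteins, 7 rose and 4 fell in vector cells, and 6 rose and 2 fell in IDH1 R132C cells, where 15.1% and 14.2% of all genes rose and fell in vector cells and 13.6% and 12.3% in IDH1 R132C cells. Nid1, which links laminin to type IV collagen, read 7.14 and 6.71 on collagen and 4.92 and 5.05 on uncoated plates in vector cells. The mutant cells read 7.20 and 7.13 against 5.98 and 5.71. The falls were 1.94 and 1.32 on the log2 scale, with no overlap in either cell line. Fbln2 changed by -0.85 and -0.96. Sdc4 rose by 0.79 in vector and 0.81 in IDH1 R132C cells, and Fn1, which encodes fibronectin, by 0.78 and 0.97. Tnc, which encodes tenascin-C, rose by 1.12 in vector cells and did not pass in IDH1 R132C cells (0.33), while Ecm1 rose by 0.95 in IDH1 R132C cells and did not pass in vector cells (0.27).

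Of the collagen enzymes, 2 rose and 5 fell in vector cells (31.8% called, against 29.3% of all genes), and 7 rose and 5 fell in IDH1 R132C cells (54.5%, against 25.9%). Tgm2, a transglutaminase that crosslinks matrix proteins, rose by 1.77 and 1.51. Pcolce2, an enhancer of procollagen cleavage, changed by -1.60 and -1.37, and Plod2, a collagen lysyl hydroxylase, by -1.25 and -1.04. Of the lysyl oxidase genes, Loxl4 fell by 0.80 in vector cells and did not pass in IDH1 R132C cells (-0.34), and Loxl1 fell by 0.88 in IDH1 R132C cells and did not pass in vector cells (-0.70).

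Of the proteases and inhibitors, 3 rose and 4 fell in vector cells (23.3% called, against 29.3% of all genes), and 4 rose and 2 fell in IDH1 R132C cells (20.0%, against 25.9%). Adam12 changed by -0.98 and -0.58. Timp1, an inhibitor of matrix metalloproteases, changed by -0.60 and -0.46, and Mmp11 rose by 0.48 and 0.81. Plau, which encodes urokinase, fell by 0.88 in vector cells and did not pass in IDH1 R132C cells (-0.072), and Timp2 rose by 0.56 in IDH1 R132C cells and did not pass in vector cells (0.19). Whether these responses differ between the cell lines is covered by the test of the difference, which Adamts1 alone of the 4 lists passed. Adamts1, a secreted protease of proteoglycans, rose by 3.20 in vector cells and 1.22 in IDH1 R132C cells. It read 5.88 and 6.42 on collagen and 9.58 and 9.12 on uncoated plates in vector cells, against 5.84 and 6.30 and then 7.22 and 7.36 in IDH1 R132C cells.

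Between IDH1 R132C and vector cells on uncoated plates, 2 adhesion proteins were higher and 1 lower, 1 matrix protein was higher, 2 collagen enzymes were higher, and 2 proteases were higher and 1 lower, where 0.896% of all genes were higher and 1.49% lower. Tns1 (0.75), Cav1 (0.55), Sparc (0.61), Pcolce2 (0.79), Loxl4 (0.67), Adam12 (0.71) and Plau (0.62) were higher in IDH1 R132C cells, and Lims2 (-0.60) and Adamts1 (-2.06) were lower. Sparc encodes a collagen-binding matrix protein.

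Between both mutants and both wild types on collagen, 1 adhesion protein was higher and 2 lower, 1 collagen enzyme was higher and 3 lower, 1 protease was lower and no matrix protein passed the test, where 1.18% of all genes were higher and 2.44% lower. Pcolce, which encodes the main enhancer of procollagen cleavage, read 10.94 and 10.95 with IDH1 R132C and 10.62 and 10.82 with IDH2 R172K. With the wild types it read 11.51 and 11.31 for IDH1 and 11.55 and 11.47 for IDH2. Its mutant arrays lay below all wild-type arrays, a difference of -0.63. Serpinh1, the collagen chaperone HSP47, was lower by 0.44 on the log2 scale and P3h4 by 0.35, while Pcolce2 was higher by 0.45. Fblim1 (-0.54), Cd47 (-0.35) and the protease Mmp14 (-0.37) were lower and Lims2 (0.44) higher. For IDH2 R172K alone, Pcolce, P3h4 and Mmp14 were called and lower, and no partner was called for IDH1 R132C alone.

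**Figure D5:**
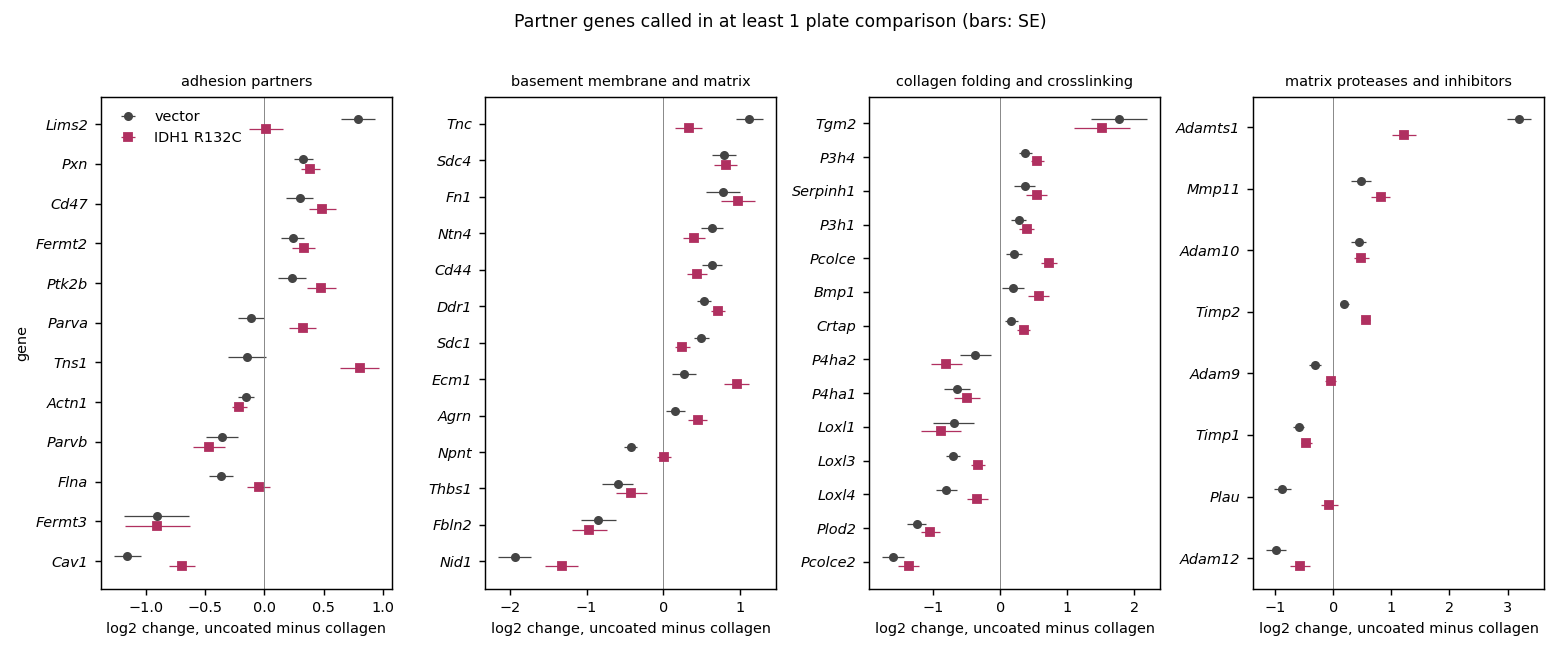
Log2 change from collagen-coated to uncoated plates of the partner genes called in either cell line, by list, with circles for vector cells, squares for IDH1 R132C cells and bars for 1 SE. Nid1, Pcolce2 and Plod2 lie below 0 and Tgm2 and Adamts1 above 0 in both cell lines.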

How the data were processed

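The deposited table holds 1 linear intensity per probe set and array, from 5.84 to 26770. The authors made these values with RMA, per the submitters' processing notes, and its version and settings are not given in the sources used here. Such summaries shrink differences of dim probes. The log2 of each intensity was taken without further scaling. Of 22690 probe sets, 64 controls, 691 with several gene symbols and 1555 without one were left out, and the 20380 others gave 12393 genes. All genes were fitted with limma 3.58.1 in R 4.3.3, with 7 group means and an intensity trend, and p-values were adjusted by Benjamini-Hochberg over all genes. The fit was tested on simulated data.

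In each family the text names every member called in a comparison and up to 4 members not called with the highest levels, and in each partner list up to 4 called genes with the largest change. Other names are said to be chosen after their values were seen. The members and lists were chosen with earlier results of these data known. Alternatives were averaged probe sets, dim genes left out, cyclic loess, median centring, no trend, the compared arrays alone, a replicate block, each array left out, another background mark and a looser symbol rule. The labels do not say whether same-numbered cultures were paired, and the main fit did not pair them.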

Additional observations from a re-analysis of the deposited data

Results flagged for a closer look

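The rise of Adamts1, a secreted protease gene, on uncoated plates differed between IDH1 R132C and vector cells by -1.98 on the log2 scale (SE 0.29, limma adjusted p = 0.0103), by the test of the difference itself. It was the only gene of the 4 partner lists to pass that test, and no integrin, laminin or collagen gene did. The alternatives listed above were applied to the members only, so the calls of partner genes, Adamts1 included, were not rechecked under them.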

How the results depend on the processing

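Among the alternatives planned, no called member changed direction: of 344 repeated values of called members, 272 kept their call and 72 lost it. On plates, 13 to 18 members were called in vector cells (16 as reported) and 9 to 15 in IDH1 R132C cells (12 as reported) under other settings, and 10 to 15 and 6 to 9 with 1 array left out. The lowest counts were 10 without vector collagen culture 1 and 6 without IDH1 R132C collagen culture 1. With a gene's probe sets averaged, Itgb1, Itgb2 and Lamb1 no longer passed in vector cells (limma adjusted p 0.0547 to 0.112). Col4a5, Col4a6 and Itgb1 no longer passed in IDH1 R132C cells (limma adjusted p 0.0560 to 0.122). Between IDH1 R132C and vector cells on uncoated plates, the 1 call became 0 with averaged probe sets, dim genes left out, cyclic loess or no intensity trend, and ranged from 0 to 0 with 1 array left out. For IDH2 R172K against wild-type IDH2, 0 to 5 members were called with 1 array left out, 5 of them without IDH2 R172K culture 2. For both mutants against both wild types, 1 was called in place of 2 with averaged probe sets, dim genes left out or only the compared arrays, and 0 to 5 with 1 array left out. A mark at the 30th percentile put 21 members near background in all groups, and averaged probe sets put 20 there, in place of 11. The causes of these shifts were not tested.

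The labels number the cultures 1 and 2 but do not say that a number is shared between groups. Deviations of same-numbered cultures correlated from -0.041 to 0.487 over 21 pairs of groups, of which 13 were above 0.1 and 0 below -0.1. Cultures of the same number thus tended to deviate alike. What they share is not given, and the main fit did not use the number. With a replicate block, 17 members were called on plates in vector cells, 14 in IDH1 R132C cells, 2 between these lines on uncoated plates, 1 for IDH2 R172K, 3 for both mutants and 2 in the test over the 5 collagen groups. With 2 arrays a group and dim probes close to background, small changes of the dim collagens could not be seen.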

Other observations

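The cultures numbered 2 read above those numbered 1 in all 7 groups for 4 members, namely Col18a1, Col4a5, Col6a2 and Itgav. They were 5.88% of the members, against 2.88% of all genes. No member was higher in culture 1 in all 7 groups, against 2.41% of all genes.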
